A study of Mus musculus with 15 samples.

Results

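Goblet cells of the mouse small intestine had 1736 H3K4me2 peaks that met no listed peak of enterocytes, Lgr5+ stem cells or enterocyte progenitors. Each was held by at least 1 list of secretory progenitors. They were chosen from the 86922 peaks of the goblet cell list (GOB) by overlap of at least 1 bp with other peak lists. A chosen peak was overlapped by no peak of enterocytes (ENT), of stem cells (ISC) or of ATOH1, by at least 1 of the H3K4me2 lists of secretory progenitors (Sec-Pro) and by neither H3K4me2 list of enterocyte progenitors (Ent-Pro). Of the GOB peaks, 21531 were absent from ENT, 19844 of these from ISC as well, and 18902 also lay outside ATOH1 peaks. A Sec-Pro list held 4862 of the 18902, and 3126 of those were removed because an Ent-Pro list held them too. The remaining 1736 make up 1.997% of the GOB list. A peak missing from a list does not show that the mark was absent, since the depth of the libraries is unknown. The ISC list covered 33.4 Mb and had a highest score of 37.7, the lowest of the 7 H3K4me2 lists in both.

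All libraries came from C57BL/6 mice, and each list stands for 1 library. GOB cells were taken from villi of Rbpj-/- mice, and ENT from villi of Atoh1-/- mice, which have no secretory cells. Sec-Pro were crypt cells enriched either by the Notch inhibitor dibenzazepine (DBZ) or by deletion of Rbpj, with 1 H3K4me2 library of each preparation. Ent-Pro were crypt cells of Atoh1-/- mice, with 2 H3K4me2 libraries. ISC were sorted for GFP from Lgr5-eGFP-Cre mice. H3K27ac and DNase I hypersensitive sites (DHS) were mapped once in Sec-Pro and once in Ent-Pro, and ATOH1 once in Sec-Pro through a FLAG antibody. Whether DBZ-treated or Rbpj-deleted Sec-Pro were used for the other assays is not stated, nor is the Cre driver that removed Rbpj or Atoh1. Lineage and genotype or treatment cannot be told apart in any comparison of secretory with absorptive cells. In such bulk cells, a mark in fewer cells and a weaker mark in every cell cannot be told apart either.

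Goblet cells secrete the mucus that covers the intestinal lining, and they descend from crypt progenitors in which ATOH1 is active and Notch signalling is low. Notch acts through the DNA-binding protein RBPJ, so that loss of RBPJ or a gamma-secretase inhibitor such as DBZ turns crypt progenitors toward the secretory fate. H3K4me2 marks promoters and enhancers, whether active or not. H3K27ac marks the active ones, and DHS mark open chromatin. A region with H3K4me2 in a progenitor and without H3K27ac is often called primed.

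Most of the peaks rested on the DBZ library alone. DBZ-treated Sec-Pro alone held 1584 of the 1736 peaks (91.2%, 95% interval 89.8 to 92.5), Rbpj-deleted Sec-Pro alone held 72 (4.15%, 3.31 to 5.19), and both held 80 (4.61%, 3.72 to 5.70). Among all GOB peaks that a Sec-Pro list held, DBZ alone accounted for 19.5% and both lists for 76.9%. The Rbpj-deleted progenitors, which share their genotype with the GOB cells, contributed fewer of the chosen peaks. The lists differed in size, with 92279 peaks in the DBZ list and 63293 in the Rbpj list, and their shortest peaks measured 146 bp and 200 bp. By length of the GOB peak, the Rbpj list held 69 of the 698 chosen peaks shorter than 200 bp (9.89%, 7.89 to 12.3). It held 19 of the 269 of 400 bp or more (7.06%, 4.57 to 10.8). These intervals overlap, and the length of the GOB peak is not that of the Sec-Pro peak. The part of genotype, list size or shortest peak in these shares was not tested. Intervals are Wilson intervals throughout for single shares and cover counting error only.

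The same rule with the progenitors exchanged gives the scale of this count. A mirror set, present in an Ent-Pro list and in no Sec-Pro list with all other conditions equal, held 1087 GOB peaks. Of these, Ent-Pro replicate 1 alone held 887 (81.6%), replicate 2 alone 101, and both 99. Ent-Pro replicate 1 had 85881 peaks and a shortest peak of 146 bp, and replicate 2 had 64138 peaks and a shortest peak of 200 bp. In each progenitor the longer list supplied most of the peaks. Peaks found in both libraries numbered 80 on the secretory side and 99 on the absorptive side. Without the DBZ library the rule left 152 peaks, and without Ent-Pro replicate 1 it left 3670. Over all GOB peaks, 4.77% were held by a Sec-Pro list and by no Ent-Pro list. These values belong to the contrast that chose the peaks and were not tested.

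**Figure D1:**
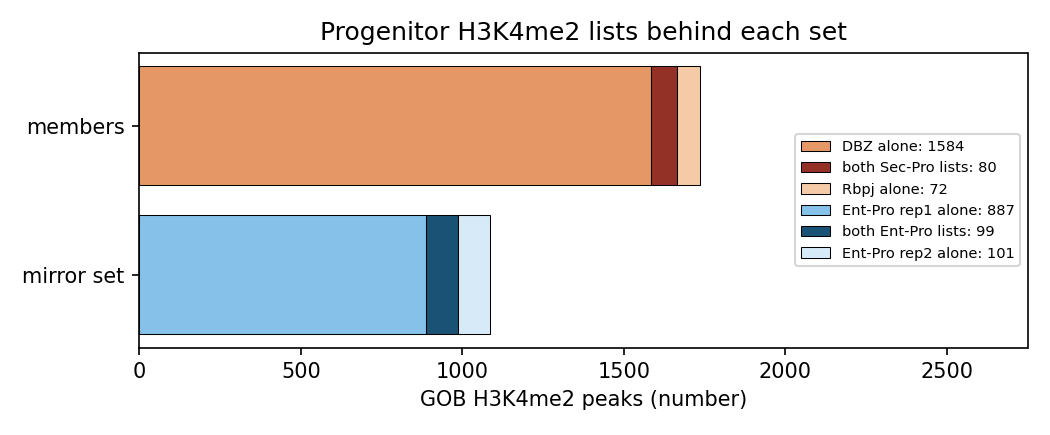
Number of GOB H3K4me2 peaks (horizontal axis) in the chosen set (members) and in the mirror set, split by the progenitor H3K4me2 list that held them. The DBZ list alone accounts for 1584 of the 1736 chosen peaks, and Ent-Pro replicate 1 alone for 887 of the 1087 mirror peaks.

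The chosen peaks were weak and short. The score the authors gave each peak had a median of 6.87 (range 2.09 to 93.8) in these peaks and 11.5 over the whole GOB list. By score, 291 of 1736 (16.8%) stood in the upper 50% of the GOB list, and the highest of them reached the 86.0 percentile. The median length was 222.5 bp (middle 50% 172 to 322 bp), against 371 bp over all GOB peaks. The mirror set (median score 6.37, 208 bp) and the 3126 peaks held by both progenitors (7.04, 229 bp) had similar medians. The 12953 GOB peaks held by neither progenitor, with absence from ENT, ISC and ATOH1 again required, scored lower (median 5.60, 200 bp). Within Sec-Pro the overlapping peaks were weak as well. The DBZ peaks over the chosen regions had a median score percentile of 29.2 in their own list, and 380 of 1664 (22.8%) stood in its upper 50%. The Rbpj peaks had a median percentile of 21.4, with 32 of 152 in the upper 50%.

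**Figure D2:**
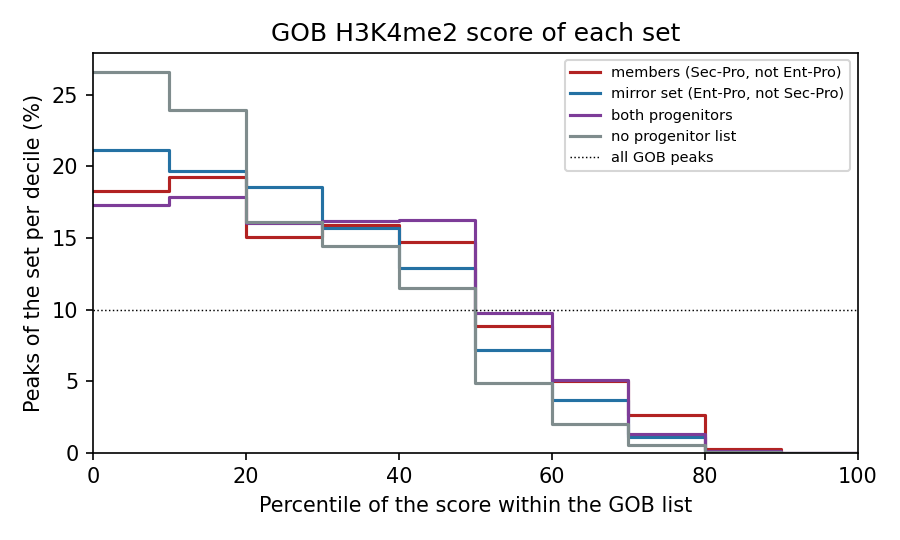
Share of each set of GOB peaks (vertical axis, %) in 10-point bins of the score percentile within the GOB list (horizontal axis). All 4 sets lie mostly below the 50 percentile, and the dotted line marks the share that all GOB peaks have in each bin.

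For presence in Sec-Pro the rule asked for a single shared base pair, and few peaks lay close to that limit. The part of a GOB peak that a Sec-Pro peak covered ranged from 0.413% to 100% with a median of 63.2%. At least 50% was covered in 1078 peaks, all of it in 334, and under 10% in 99. The smallest overlap with Sec-Pro was 1 bp. On the other side of the rule, many chosen peaks lay close to the limit for absence. The nearest Ent-Pro peak adjoined the closest chosen peak at 0 bp and lay at a median of 595.5 bp. It lay within 100 bp of 304 chosen peaks (17.5%) and within 1 kb of 996 (57.4%). The nearest ENT peak lay at 0 to 705246 bp with a median of 1219 bp. Widening the absence lists by 1 kb left 588 of the 1736 peaks. The peaks that Ent-Pro alone removed shared between 1 bp and 1847 bp with an Ent-Pro peak (median 176.5 bp), and those that ENT alone removed shared 2 to 1873 bp with an ENT peak (median 218 bp).

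Many chosen peaks lay beside other marked regions. Another GOB peak lay within 1 kb of 1205 of the 1736 (69.4%), and in 628 of these 1205 the nearest one was also an ENT peak. In 821 of the 1205 the neighbour had the higher GOB score. Another GOB peak lay this near in similar shares of the mirror set (66.8%), the peaks of both progenitors (65.9%) and those of neither (64.0%). An ENT peak lay within 1 kb of 46.4% of the chosen peaks. The shares were 51.7% in the mirror set, 53.5% in the peaks of both progenitors and 41.8% in those of neither. The Sec-Pro region over a chosen peak, with overlapping DBZ and Rbpj peaks merged, extended to an Ent-Pro H3K4me2 peak elsewhere along its length at 511 peaks (29.4%, 27.3 to 31.6), to an ENT peak at 392 (22.6%) and to an ISC peak at 308 (17.7%). These 511 regions were wide, with a median of 1160 bp. At the other 1225 peaks the Sec-Pro region touched no Ent-Pro peak, had a median width of 244 bp, and lay over GOB peaks with a median score of 7.16. In the mirror set, the Ent-Pro region extended to a Sec-Pro peak at 352 of 1087 (32.4%, 29.7 to 35.2).

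H3K27ac was not used to choose the peaks. It marks active promoters and enhancers, which H3K4me2 marks too, so it is not independent of the H3K4me2 lists that chose them. The shares below compare it between the progenitors. The shares in the progenitors differed by less than the counting error. Sec-Pro H3K27ac overlapped 312 of 1736 peaks (17.97%, 16.2 to 19.8), against 55% of all GOB peaks. Ent-Pro H3K27ac overlapped 298 (17.2%, 15.5 to 19.0), against 56.9% of all GOB peaks. Both lists held 191 of the peaks. Sec-Pro alone held 121 (6.97%, 5.86 to 8.27), where 4.87% of all GOB peaks were called. Ent-Pro alone held 107 (6.16%, 5.13 to 7.39), where 6.82% of all GOB peaks were called. No H3K27ac was found at 1317 (75.9%, 73.8 to 77.8), compared with 38.2% of all GOB peaks. The share without it was 58.8% in the mirror set and 57.3% in the peaks of both progenitors. It was highest, 84.9%, in the peaks of neither progenitor. Sec-Pro minus Ent-Pro was 0.806 percentage points over the same peaks, with a 95% interval of -0.898 to 2.51 that includes 0. Each progenitor had 1 H3K27ac library, so the conditions could not be tested against each other, and the interval covers counting error over these sites alone. The value depended on Ent-Pro replicate 1, for without it the larger set of 3670 peaks gave -2.26 points (-3.45 to -1.07). The 1317 peaks with H3K4me2 in Sec-Pro and no H3K27ac in either progenitor have the marks often called primed. Within Sec-Pro the same holds for the 107 peaks with H3K27ac in Ent-Pro alone. That the chosen peaks are particular to Sec-Pro rests on the H3K4me2 lists that chose them. The peaks are therefore called here by their rule, goblet-only peaks marked in Sec-Pro.

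The mirror set differed from the chosen peaks in this readout. Opposite H3K4me2 conditions chose these sets, so the contrast is not independent of the rule. The H3K27ac shares of the mirror set were 28.1% (25.5 to 30.8) in Sec-Pro and 36.6% (33.8 to 39.5) in Ent-Pro, a difference of -8.56 points (-11.0 to -6.10). The peaks held by both progenitors gave 30.3% and 38.9%, or -8.64 points (-10.01 to -7.26). Ent-Pro H3K27ac was thus the more frequent at both sets of Ent-Pro-marked peaks, whereas the chosen peaks showed no such excess. The Sec-Pro minus Ent-Pro difference was 9.36 points higher in the chosen peaks than in the mirror set (6.38 to 12.3) and 9.44 points higher than in the peaks of both progenitors (7.25 to 11.6). Without the DBZ library the first of these was 13.96 points (7.54 to 20.4), and without Ent-Pro replicate 1 it was 14.7 points (7.56 to 21.9). Against the peaks of neither progenitor, in which Sec-Pro exceeded Ent-Pro by 2.09 points (11.5% and 9.38%), the chosen peaks did not stand apart (-1.29 points, -3.07 to 0.498). In overall frequency they lay between these sets. Their Sec-Pro H3K27ac share was 6.50 points above that of the peaks of neither progenitor (4.61 to 8.39) and 10.1 points below that of the mirror set (the difference of chosen minus mirror was -10.1, -13.3 to -6.86).

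The chosen peaks were also split by the Sec-Pro library that held them, and differences between these subsets were not tested. At the 72 peaks of the Rbpj list alone, H3K27ac covered 33.3% in Sec-Pro and 22.2% in Ent-Pro, a difference of 11.1 points (0.529 to 21.7). DHS at the same 72 peaks ran the other way, at 6.94% in Sec-Pro and 12.5% in Ent-Pro, a difference of -5.56 points (-10.8 to -0.265). At the 80 peaks of both Sec-Pro lists the shares were equal, at 22.5% each (difference 0.0, -6.93 to 6.93). At the 1584 peaks of the DBZ list alone they were 17.0% and 16.7% (difference 0.379, -1.39 to 2.15). These small subsets leave wide intervals. By peak length, the Sec-Pro and Ent-Pro shares were 17.0% and 17.8% below 200 bp, 18.5% and 17.4% from 200 bp to under 400 bp, and 19.0% and 14.9% at 400 bp or more (difference 4.09, -0.194 to 8.37). The 291 chosen peaks in the upper 50% of the GOB list gave a difference of 4.47 points (-0.219 to 9.15). Requiring the upper 50% of every list that had to hold a peak, H3K27ac included, left 52 peaks and a difference of 7.69 points (0.450 to 14.9).

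**Figure D3:**
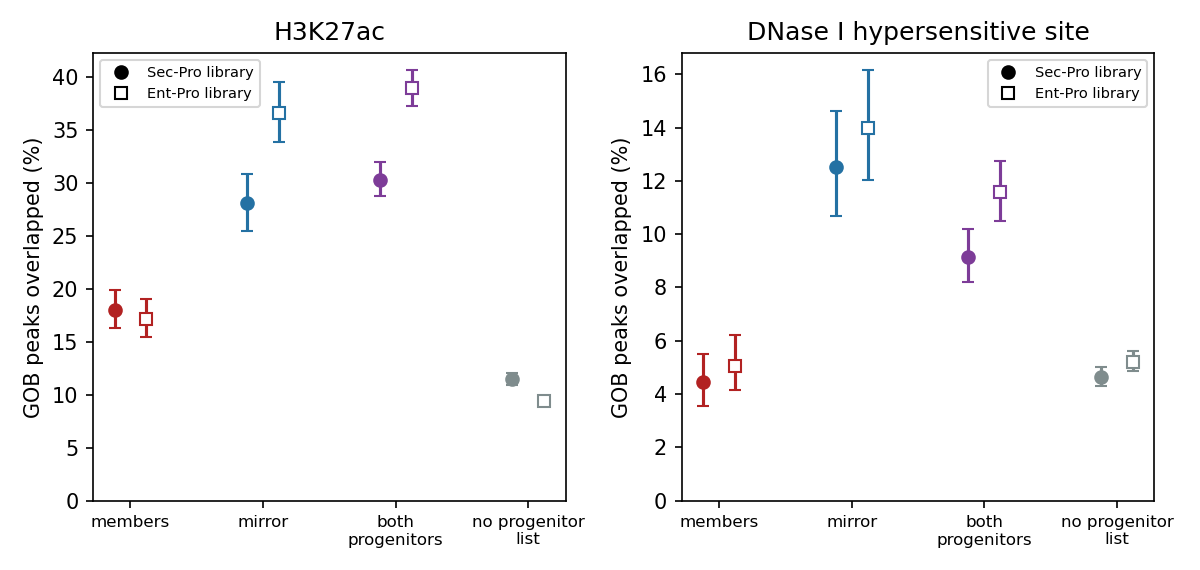
Share of GOB peaks (vertical axes, %) overlapped by H3K27ac (left) and by DHS (right) of Sec-Pro (filled circles) and Ent-Pro (open squares) in 4 sets of GOB peaks absent from ENT, ISC and ATOH1, with Wilson 95% intervals. In the chosen peaks (members) the H3K27ac shares are 17.97% and 17.2%, whereas in the mirror set they are 28.1% and 36.6%.

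Open chromatin was rare at the chosen peaks in both progenitors. A Sec-Pro DHS lay in 77 of 1736 (4.44%, 3.56 to 5.51), against 22% of all GOB peaks, and an Ent-Pro DHS in 88 (5.07%, 4.13 to 6.20), against 25.2% of all GOB peaks. Of these, 66 were open in both. Sec-Pro alone was open at 11 (0.634%), where 0.685% of all GOB peaks were called, and Ent-Pro alone at 22 (1.27%), where 3.96% of all GOB peaks were called. The Sec-Pro minus Ent-Pro difference of -0.634 points had an interval of -1.28 to 0.0142, and without Ent-Pro replicate 1 the difference was -1.61 points (-2.22 to -0.994). The mirror set was open more often, at 12.5% in Sec-Pro and 14.0% in Ent-Pro, and chosen minus mirror was -8.08 points in Sec-Pro (-10.3 to -5.88). The peaks of neither progenitor were open at 4.63% and 5.22% (chosen minus these in Sec-Pro -0.197, -1.23 to 0.837). Neither H3K27ac nor DHS of any progenitor was found at 1236 chosen peaks (71.2%, 69.0 to 73.3), compared with 31.8% of all GOB peaks. The share was 46.5% in the mirror set, 47.4% in the peaks of both progenitors and 79.5% in the peaks of neither progenitor.

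Among the chosen peaks, H3K27ac was no more frequent at open sites than at the others. Of the 99 chosen peaks with a DHS in either progenitor, 18 (18.2%, 11.8 to 26.9) had H3K27ac in either progenitor, and of the 1637 without DHS, 401 did (24.5%, 22.5 to 26.6). These intervals overlap, and the difference was not tested. Over all GOB peaks, H3K27ac was found at 75.4% (74.8 to 76.0) of the peaks with a DHS and at 57.0% (56.7 to 57.4) of those without. In the mirror set the shares were 19.3% (14.0 to 25.9) with a DHS and 45.2% (42.0 to 48.4) without, and in the peaks of both progenitors 22.2% (18.4 to 26.5) and 45.7% (43.8 to 47.6). Sec-Pro H3K27ac and a Sec-Pro DHS occurred together at 9 chosen peaks (0.518%), against 15.6% of all GOB peaks.

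ATOH1 peaks were kept out of the chosen regions by the rule, and a minority of these regions had one close by. An ATOH1 peak lay within 1 kb of 198 chosen peaks (11.4%), where 5.99% of all GOB peaks without ATOH1 overlap had one, and within 5 kb of 559 (32.2%), where the share of those GOB peaks was 22.3%. The mirror set had 8.74% and 28.3%, and the peaks of neither progenitor 7.07% and 27.3%. The chosen peaks exceeded the mirror set by 2.67 points within 1 kb (0.418 to 4.91) and by 3.87 points within 5 kb (0.400 to 7.33). They exceeded the peaks of neither progenitor by 4.33 points (2.77 to 5.89) and 4.92 points (2.59 to 7.25). Against the peaks of both progenitors the difference was 1.10 points within 1 kb (-0.731 to 2.94) and 4.47 points within 5 kb (1.76 to 7.17). Within 20 kb the share was 56.0% in the chosen peaks, close to the mirror set (55.7%) and the peaks of neither progenitor (56.5%). It was 50.3% in the peaks of both progenitors. The median distance to ATOH1 was 14869.5 bp in the chosen peaks, 15270 bp in the mirror set and 15062 bp in the peaks of neither progenitor. A Sec-Pro DHS lay within 1 kb of 17.3% of the chosen peaks, of 25.3% of the mirror set and of 12.9% of the peaks of neither progenitor. Other peaks of the same domains lay close by, as given above, and their part in the ATOH1 distances was not tested.

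**Figure D4:**
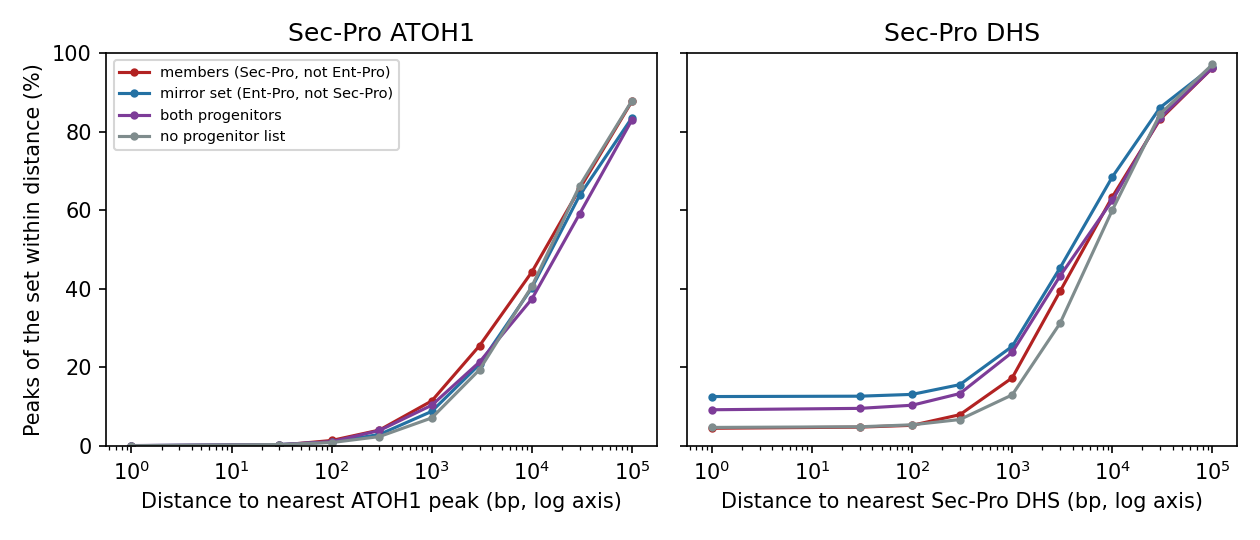
Cumulative share of each set of GOB peaks (vertical axis, %) that lies within a given distance (horizontal axes, bp, log scale) of the nearest Sec-Pro ATOH1 peak (left) and Sec-Pro DHS (right). At 1000 bp the chosen peaks (members) stand at 11.4% for ATOH1 against 8.74% in the mirror set, and at 17.3% for DHS against 25.3%.

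The 8 chosen peaks with the highest GOB score were 525 to 3133 bp long, and Sec-Pro peaks covered between 4.97% and 96.6% of each. Positions are 1-based in mm9, and genes are not named, since no annotation of that build was used here. The highest score, 93.8, belonged to a peak of 2936 bp on chromosome 2 from 170248996 to 170251931. A DBZ peak with a score percentile of 3.88 covered 4.97% of it, no H3K27ac or DHS lay in it, and the next Ent-Pro and ENT peaks were 19675 and 24771 bp away. Another GOB peak lay 214 bp from it. The next ones were on chromosome 3 from 27845010 to 27845892 (score 61.8) and on chromosome 15 from 58341478 to 58342347 (score 60.5), both marked by DBZ peaks at the 33.9 and 33.4 percentiles of that list.

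Acetylation in secretory progenitors was present at 3 of these 8 peaks. On chromosome 3 from 144692606 to 144695738, a peak of 3133 bp (GOB score 56.6) held Sec-Pro H3K27ac at the 63.8 percentile of its list, with the nearest ATOH1 peak 309205 bp away. On chromosome 17 from 27876159 to 27877845 (1687 bp, score 50.3), Sec-Pro H3K27ac stood at the 46.3 percentile, and an ATOH1 peak lay 330 bp away and a Sec-Pro DHS 634 bp away. On chromosome 6 from 146981126 to 146982020 (score 45.1), the DBZ peak covered 96.6% of the GOB peak and Sec-Pro H3K27ac stood at the 36.3 percentile. The remaining ones of the 8 highest were on chromosome 7 from 28861561 to 28862085 (score 54.2, ATOH1 peak 1191 bp away) and on chromosome 8 from 77738366 to 77740537 (score 47.4), where a strong DBZ peak at the 93.7 percentile extended to an Ent-Pro peak. In all, the DBZ list held 8 of these 8 peaks, the Rbpj list 0, Sec-Pro H3K27ac 3, Ent-Pro H3K27ac 0, and the DHS lists 0. In 7 of the 8 the Sec-Pro region touched no Ent-Pro peak.

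**Figure D5:**
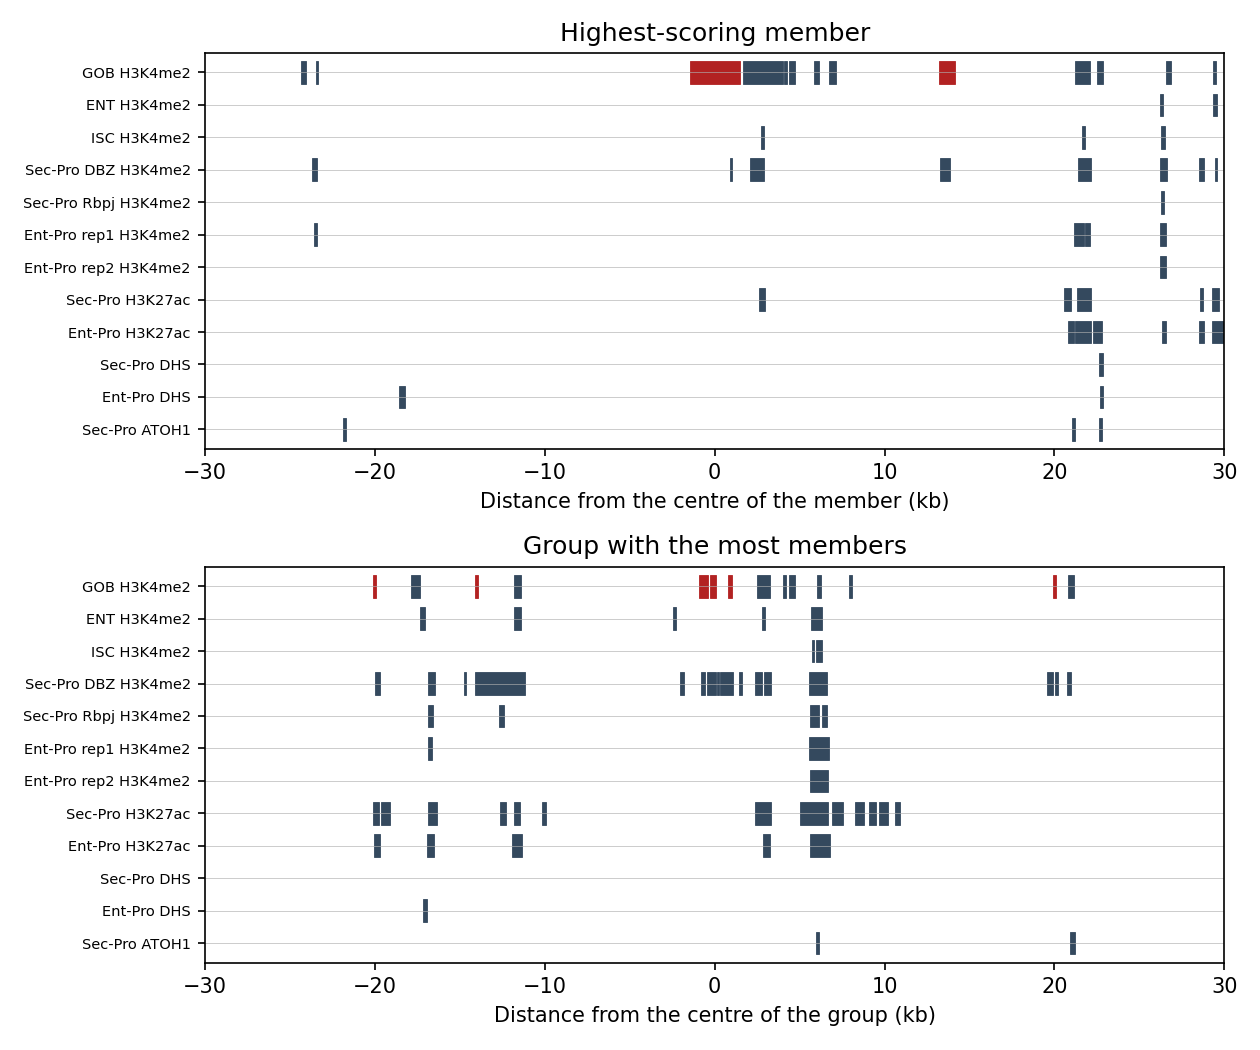
Peaks of all 12 lists (rows) within 30 kb of the centre of the highest-scoring chosen peak (upper) and of the group with the most chosen peaks (lower), drawn to scale by distance (kb); chosen peaks are red and all other peaks dark. In the upper window another GOB peak lies 214 bp from the central chosen peak, and a DBZ peak covers 4.97% of it.

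Chosen peaks strongest in both Sec-Pro libraries were of another kind. The 6 with the highest lower percentile over both lists were GOB peaks of 146 to 296 bp with low GOB scores (5.60 to 8.49), and each lay 20 to 217 bp from an Ent-Pro peak and 85 to 198 bp from an ENT peak. The first, on chromosome 3 from 130812704 to 130812898, was wholly covered by a DBZ peak at the 95.2 percentile and had a Rbpj peak at the 96.0 percentile. The second, on chromosome 4 from 155578977 to 155579169, had percentiles of 97.1 and 93.7. In all 6 the Sec-Pro region extended to an Ent-Pro peak, that is, to H3K4me2 that the enterocyte progenitors also carried. One of the 6, on chromosome 4 from 98865986 to 98866157, had H3K27ac, in both progenitors.

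The 6 chosen peaks with the highest Sec-Pro H3K27ac and none in Ent-Pro also lay near Ent-Pro peaks. Their distance to an Ent-Pro H3K4me2 peak was 27 to 566 bp, and 5 of the 6 were within 1 kb of an ENT peak. The first, a GOB peak of 166 bp on chromosome 1 from 39296499 to 39296664, had Sec-Pro H3K27ac at the 88.7 percentile and lay 21 bp from an ENT peak. The second, on chromosome 13 from 99407114 to 99407343, had Sec-Pro H3K27ac at the 84.2 percentile and lay 574 bp from an ENT peak. None of the 6 held a DHS of either progenitor. Sec-Pro H3K4me2 peaks covered between 1.01% and 100% of these GOB peaks, and the lowest shares were 1.01%, 3.33% and 13.4%. In 4 of the 6 the Sec-Pro region extended to an Ent-Pro peak.

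The 6 highest-scoring DHS found in Sec-Pro alone stood between the 22.9 and 47.1 percentiles of the Sec-Pro DHS list. The first lay in a GOB peak of 1069 bp on chromosome 5 from 113728844 to 113729912, which a DBZ peak covered to 13.8%. The second, on chromosome 8 from 108034421 to 108034675, was a GOB peak of 255 bp wholly inside a Sec-Pro peak and present in both Sec-Pro lists, with the next Ent-Pro H3K4me2 peak 5139 bp and the next Ent-Pro DHS 7618 bp away. It had no H3K27ac. The third, on chromosome 5 from 35656656 to 35656826, had an Ent-Pro DHS 128 bp away. In 5 of these 6 the Sec-Pro region touched no Ent-Pro peak.

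Chosen peaks within 20 kb of each other formed 216 groups, which held 498 of the 1736 (28.7%). Most groups were pairs, 167 in number, and 2 groups held 6 peaks each. One of these spanned 40.2 kb of chromosome 11 from 83383441 to 83423687. Its 6 peaks had GOB scores of 6.37 to 32.4 and were all held by the DBZ list and by no Rbpj peak. Within the span lay 13 GOB peaks, 4 of which were also in ENT and 1 under an ATOH1 peak, and 1 chosen peak had H3K27ac, in both progenitors. The other spanned 18.8 kb of chromosome 5 from 115023082 to 115041930, with scores of 2.68 to 8.49, 6 ATOH1 peaks within 20 kb, and no H3K27ac or DHS on a chosen peak. A group of 4 on chromosome 6 from 146968104 to 146983328, which includes 1 of the 8 highest-scoring peaks, lay among 8 GOB peaks of which 0 were in ENT, and 2 of the 4 had H3K27ac in Sec-Pro and 0 in Ent-Pro. Another group of 4, on chromosome 3 from 98007579 to 98027996, had scores of 7.16 to 20.2 and neither H3K27ac nor DHS.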

How the data were processed

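The tools named per the submitters' processing notes are MACS2, Bowtie 0.12.7 and CASAVA 1.7, with build mm9. Tool settings, and any use of input DNA, were not given in the sources used here. The authors deposited 1 peak list per library for 12 of 15 samples, each with position, name and a score that the files do not name. Peaks were ranked by score inside their own list alone. Read numbers are not given, so depth is unknown, and a missing peak does not show that a mark is absent. Nothing says whether the Ent-Pro replicates came from separate animals.

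Overlaps (1 bp), coverage and distances were computed in Python 3.11.15 with NumPy 2.4.6 and pandas 2.3.3, and figures drawn with matplotlib 3.10.9. Differences of shares over the same peaks or over separate sets have Wald 95% intervals for counting error. No p-values were computed, since 1 library stood on each side and sites are not replicates. The counting was tested on simulated data (300 of 300 made members found among 20000 sites). The peaks, sets and tests were chosen with earlier results of these data known. Regions were named by rule: the 8 chosen peaks with the highest GOB score; the 6 with the highest lower score percentile among those in both Sec-Pro H3K4me2 lists; the 6 with the highest H3K27ac percentile, and the 6 with the highest DHS percentile, among those with that readout in Sec-Pro and not in Ent-Pro; and the 4 largest groups within 20 kb. The gene and promoter tables at hand belong to GRCm38.p6, so no gene was named, no sequence printed and the planned motifs and gene lists were not run. The 3 input samples were not analysed here. Alternatives were overlap of 50%, absence within 1 kb, the upper 50% by score, autosomes, single progenitor libraries set against each other and leaving out each progenitor library.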

Additional observations from a re-analysis of the deposited data

How the results depend on the processing

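The excess of the Sec-Pro minus Ent-Pro H3K27ac difference in the chosen peaks over the mirror set stayed above 0, interval included, in all 12 alternatives. These reuse the same H3K27ac libraries and overlapping sets of peaks, so they are not independent of each other. Their intervals count nearby peaks as separate, and H3K4me2 chose both sets, so the agreement is not a test of the difference. In the alternative that asks for the upper 50% of every list, the mirror set held 13 peaks with no difference, so its interval is too narrow. The other values moved with the choice of lists. Requiring 50% coverage by Sec-Pro H3K4me2 and by the marks left 1078 peaks with Sec-Pro H3K27ac at 14.2% and DHS at 2.78%. Widening the absence lists by 1 kb left 588 peaks (10.7% and 6.12%; DHS difference -1.53 points). The upper 50% of the GOB list left 291 peaks (H3K27ac difference 4.47 points), and the upper 50% of every list 52 (H3K27ac 11.5%, difference 7.69 points; DHS 0.0%). Rbpj-deleted Sec-Pro against Ent-Pro replicate 2, both with 200 bp shortest peaks, gave 620 peaks, 25.6% with H3K27ac and 12.4% with DHS, differences of -1.13 and -1.29 points, and an excess over the mirror set of 16.05 points; DBZ against Ent-Pro replicate 1 gave 1771 peaks and 7.26 points. Leaving out 1 progenitor library gave 152 to 3670 peaks, Sec-Pro H3K27ac at 17.3% to 27.6%, DHS at 4.33% to 7.71%, H3K27ac differences of -2.26 to 5.26, DHS differences of -1.97 to -0.421 and an excess of 8.23 to 14.7 points. Keeping the peaks whose Sec-Pro region touched no Ent-Pro peak, chosen after seeing the data, left 1225 with an excess of 9.22 points, and their DHS difference of -0.980 points had an interval below 0 (-1.82 to -0.135). The causes of these shifts were not tested. No paired analysis was possible because the Sec-Pro libraries carry no replicate numbers and the marks have 1 library each.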

Other observations

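The chosen peaks were spread over all autosomes and chromosome X. Chromosome 11 held the most, 168, followed by chromosome 5 with 140 and chromosome 1 with 132. As a share of the GOB peaks absent from ENT, ISC and ATOH1, they ran from 7.80% on chromosome 2 (6.52 to 9.30) to 11.1% on chromosome 1 (9.48 to 13.1). Chromosome X held 14 of 143 such peaks (9.79%, 5.92 to 15.8).

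Where H3K27ac or DHS did overlap a chosen peak, the overlapping peak had a median rank below the middle of its own list. Sec-Pro H3K27ac peaks had a median percentile of 36.0 (n = 312), Ent-Pro H3K27ac peaks of 43.6 (n = 298), Sec-Pro DHS of 44.8 (n = 77) and Ent-Pro DHS of 48.3 (n = 88). Over all GOB peaks the medians were higher, in the same order 73.9, 73.4, 72.2 and 73.2. In the mirror set they were 50.6, 54.3, 45.1 and 52.9. These ranks come from lists of different length and show no change between progenitors. At the 18 chosen peaks in both Sec-Pro lists with Sec-Pro H3K27ac, the median percentile of that mark was 69.5, and at the 18 with Ent-Pro H3K27ac it was 43.1. The upper quartiles ran the other way, at 77.1 and 79.5. These sets are small, share 14 peaks, and were not tested against each other.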
